A study of Mus musculus with 9 samples.

Results

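Chemokines are small secreted proteins that guide leukocytes along a gradient, and their receptors are G protein-coupled receptors on the cells that migrate. The family is divided by the spacing of its first cysteines into CC ligands, which bind CC receptors, and CXC ligands, which bind CXC receptors. In liver, chemokines from hepatocytes, sinusoidal and stellate cells and resident macrophages draw in monocytes, neutrophils and lymphocytes, and this traffic is studied as a step between fat storage and inflammation. The genes described here are all those whose symbol is Ccl, Cxcl, Ccr or Cxcr followed by a number, with at most 1 letter after it. These were 45 of the 18193 genes that could be named and tested, 31 ligands and 14 receptors, read by 69 probe sets.

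RNA was measured in liver of male mice aged 14 weeks, fed regular chow, on Affymetrix arrays with a single colour. The db/db mice (BKS.Cg-Leprdb, 4 samples) lack a working leptin receptor and have become obese and diabetic with a fatty liver by this age. The controls (BKS, C57BL/KSlepr+/+, 5 samples) are littermates on the same strain background with the intact receptor gene. The comparison thus asks how chemokine RNA differs between lean and obese, diabetic liver. Leptin signalling is lost in every tissue of the db/db mouse, and its effects cannot be told apart from those of obesity and diabetes. Replicates carry a number, but no label states that they are different mice, so every p-value reflects sample-to-sample spread, which may be technical.

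Values are signals after quantile normalization over the 9 arrays, and fold changes are db/db minus BKS on the scale log2(signal + 16), which understates the change of dim genes. "Rose" and "fell" mean an adjusted p under 0.05 in limma with Benjamini-Hochberg adjustment over all genes. Median deposited signals per array ran from 67.4 to 110.8, and no detection calls were given. Of the 45 members, 35 had a mean below that of the median gene, and their standard errors ran from 0.32 to 0.64. Control probe sets for 18S ribosomal RNA split the arrays into a set of 5 with low signal (13.2 to 23.6) and a set of 4 with high signal (944 to 6929). The high set holds BKS 4, BKS 5, db/db 3 and db/db 4, so each set contains both genotypes. The labels name no batch for this split. RNA of 6 hepatocyte markers was bright on every array (albumin from 40740 to 49539), as fits the labelled tissue. In whole liver, fewer cells of a type and less RNA per cell cannot be told apart.

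Among the chemokine and receptor genes, Cxcl14 was the one whose RNA passed the test between the genotypes. Of 45 members 1 fell, 0 rose and 44 did not pass (limma). The share called was 2.22%, against 5.49% of all genes in either direction and 2.60% of all genes that fell. At an unadjusted p under 0.05 there were 7 members (15.6%), against 17.6% of all genes. The groups did not overlap for 3 members, Cxcl14, Ccr4 and Cxcl5 (6.67%), against 9.15% of all genes. The median log2 fold change was 0.06 over the members and -0.0022 over all genes, and 23 members were positive and 22 negative. The median size of the change, whatever its sign, was 0.38 over the members and 0.29 over all genes, with median standard errors of 0.41 and 0.32, so a missed threshold does not show that a member was equal in the groups. With the 18S split as a block 3 members were called, Cxcl14, Cxcl1 and Ccr4 (6.67%, against 8.23% of all genes). Each of these gene-level shares of members lies below that of the whole table. They rest on few members, partly the same ones, and do not show that members were called less often. By role, the medians were -0.27 for the 5 ELR ligands, -0.01 for the 3 interferon-induced, -0.05 for the 5 other CXC, 0.12 for the 12 inflammatory CC and 0.12 for the 6 other CC ligands, 0.36 for the 9 CC receptors and -0.09 for the 5 CXC receptors. When every probe set was fitted on its own, 4 of the 69 passed (5.80%, against 2.76% of 45101 probe sets), and they belong to Cxcl14, Cxcl1 and Cxcl12.

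**Figure D1:**
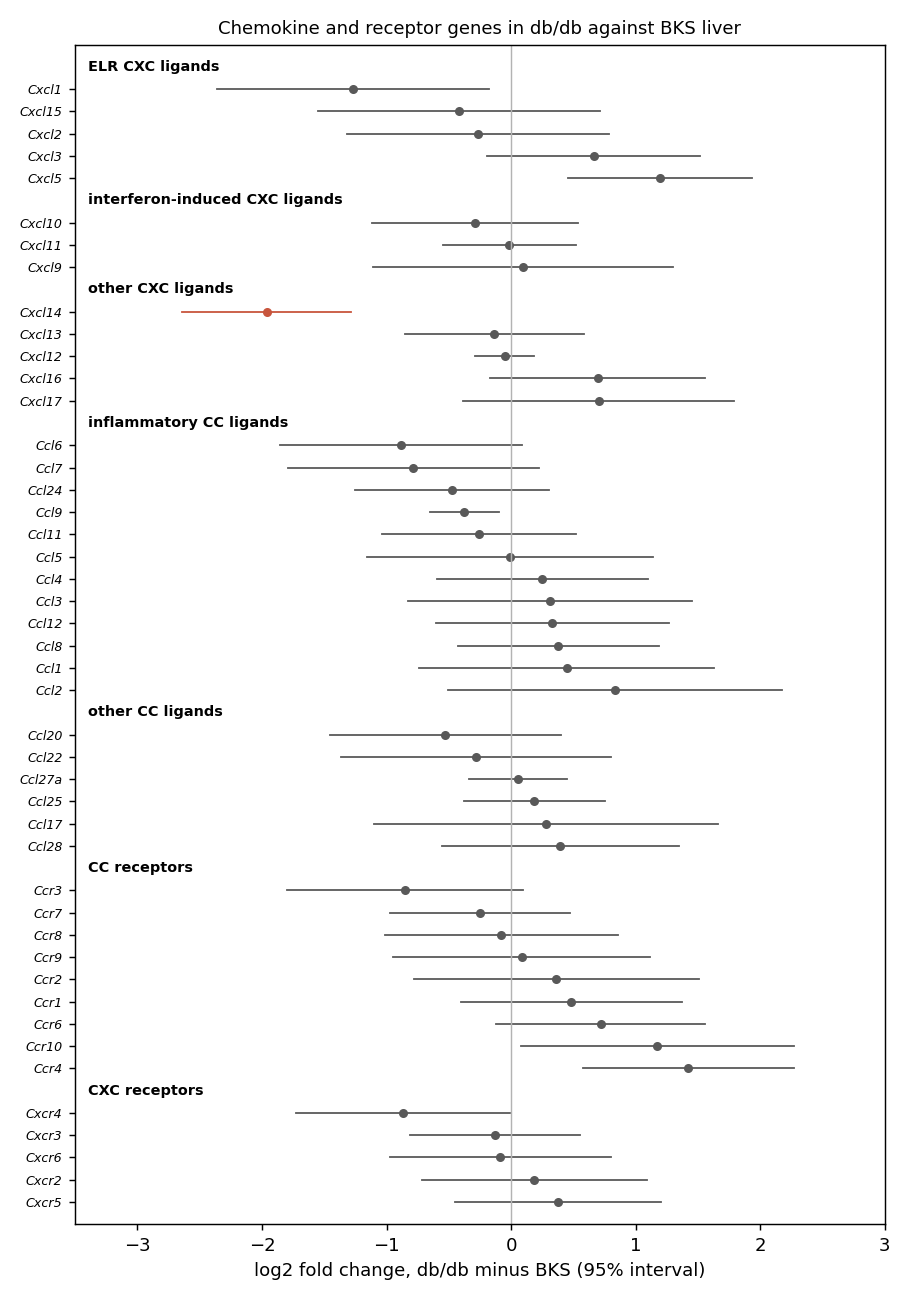
Log2 fold change (db/db minus BKS) of each of the 45 chemokine and receptor genes, 1 probe set per gene, grouped by role. Points are estimates, bars are 95% intervals from limma, and red marks an adjusted p under 0.05. Only the bar of Cxcl14 is red, and most bars span 0.

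Cxcl14 is a CXC ligand made by epithelial and other resident cells and is known for acting on monocytes and dendritic cells. Its brighter probe set read 831, 549, 485, 443 and 282 in BKS 1 to 5 and 67.0, 116, 136 and 152 in db/db 1 to 4. Every db/db array thus lay below every BKS array. The gene fell by 1.96 on the log2 scale, which is 3.90-fold (from 8.98 ± 0.54 to 7.02 ± 0.45, SD, n = 5 and 4, SE 0.31, limma adjusted p = 0.00216). The second probe set showed a wider gap. It read 979, 1044, 827, 602 and 312 in BKS, and 2.64, 2.53, 2.45 and 3.36 in db/db. Its deposited signals before normalization were 290.9 to 1086 in BKS and 2.4 to 3.1 in db/db, where the lowest signal of any probe set on an array was 0.1 to 0.4. On the log2(signal + 16) scale this probe set fell by 5.24 (SE 0.37, limma over all probe sets, adjusted p = 2.46e-06). The size rests on the amount added, since it was -7.55 with 1 and -3.51 with 64 in place of 16. The probe sets thus give the same direction and unlike sizes, and which stretch of the transcript each reads is not given in the files used here.

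The fall of Cxcl14 was present in both sets of arrays: the group means of the brighter probe set differed by -2.57 on low 18S arrays and by -1.21 on high ones, and those of the second by -5.69 and -4.57. Both probe sets were called in all 9 fits that left out 1 array. In the high 18S arrays alone, 2 against 2, the brighter probe set stood at -1.25 and lost its call (limma adjusted p = 0.197). The 150 bases before the RefSeq start of Cxcl14 (GRCm38.p6, chr13:56296552-56296701, minus strand) are shown because it is the gene that fell, to be set beside the windows of the neutrophil ligands, with any match to the NF-kappa B consensus or to TATAAA in capitals. There was none in these letters:
Cxcl14: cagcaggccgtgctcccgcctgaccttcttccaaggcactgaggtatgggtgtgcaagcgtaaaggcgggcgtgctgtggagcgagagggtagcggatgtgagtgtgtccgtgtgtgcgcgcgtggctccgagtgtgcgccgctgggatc

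**Figure D2:**
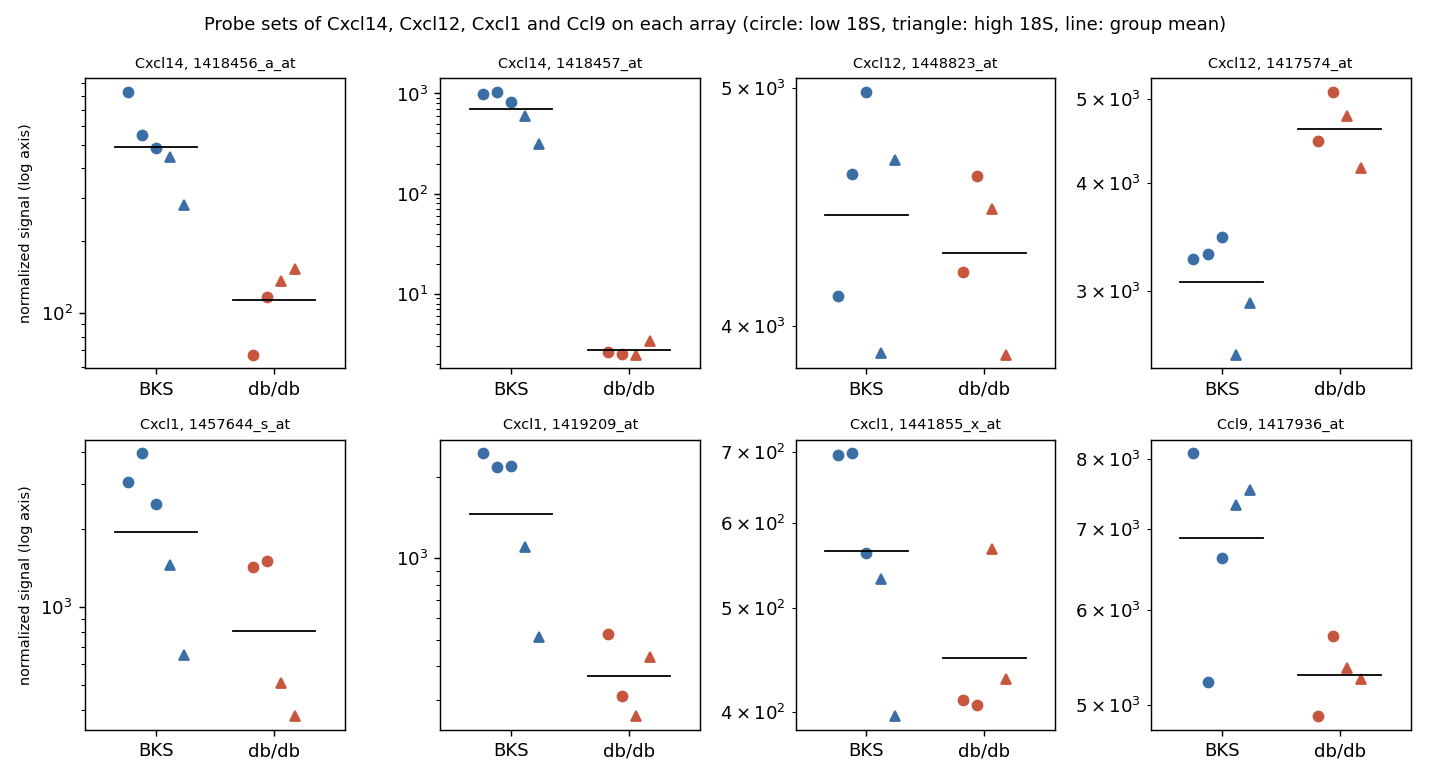
Normalized signal (log axis, a scale of its own per panel) of probe sets of Cxcl14, Cxcl12, Cxcl1 and Ccl9 on each array. Points are arrays (5 BKS in blue, 4 db/db in red, circles low and triangles high 18S), and lines are group means taken on the log2 scale. The db/db arrays of the second Cxcl14 probe set lie between 2.45 and 3.36 while those of BKS lie between 312 and 1044, and the 2 bright Cxcl12 probe sets part.

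The ligands of the neutrophil receptor Cxcr2, which carry the ELR motif, had estimates of both signs, and none of the 5 was called over genes. Cxcl1, an attractant of neutrophils, read 3037, 3949, 2499, 1459 and 655 in BKS and 1434, 1506, 506 and 377 in db/db on its brightest probe set. The groups overlapped over all arrays. They did not overlap within the low 18S arrays (2499 to 3949 in BKS, 1434 and 1506 in db/db) or within the high ones (655 and 1459 in BKS, 377 and 506 in db/db). The log2 fold change was -1.27 (SE 0.51, limma adjusted p = 0.198), with -1.07 on low 18S arrays and -1.13 on high ones. With the 18S split as a block it was -1.10 and passed (limma adjusted p = 0.00527). It also passed without BKS 5 (-1.65, limma adjusted p = 0.0445).

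A second Cxcl1 probe set read 2457, 2185, 2204, 1102 and 511 in BKS and 524, 310, 260 and 432 in db/db. The lowest BKS array, BKS 5, lay just under the highest db/db array. It fell by 1.95 (SE 0.39, limma over all probe sets, adjusted p = 0.0144, and 0.0663 without db/db 3, the fit of 9 in which it lost its call). The third, with the suffix x_at, stood at -0.32 (adjusted p = 0.577, limma). This suffix and the s_at of the brightest one mark probe sets that may also bind other transcripts. All 3 had negative signs, but only 1 passed, and gene-level Cxcl1 is therefore given as not called.

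Cxcl2, the macrophage inflammatory protein that works alongside Cxcl1, was dim, with 14.3 to 84.1 in BKS and 6.81 to 61.7 in db/db, and stood at -0.27 (95% interval -1.32 to 0.78). Cxcl5, a further neutrophil ligand, read 18.6, 3.04, 25.5, 4.26 and 14.1 in BKS and 36.8, 41.0, 56.3 and 59.6 in db/db. Its groups did not overlap and its sign was opposite to that of Cxcl1, at 1.20 (SE 0.34), but it missed the threshold (limma adjusted p = 0.0633, and 0.0488 without an intensity trend). Cxcl3 stood at 0.66 (-0.19 to 1.51) and Cxcl15, known from lung, at -0.42 (-1.55 to 0.71). Cxcr2 itself, the receptor of these ligands on neutrophils, read 9.67 to 34.0 in BKS and 9.78 to 83.3 in db/db (0.19, interval -0.72 to 1.09). Signs thus differed within this ligand group, and all but Cxcl1 had a mean below that of the median gene.

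Cxcl1, Cxcl2 and Cxcl3 lie near each other on mouse chromosome 5. Their promoters are printed because the 3 genes share letters at a site of NF-kappa B, the factor known to induce them. Whether the 3 genes differ in their change between the genotypes was not tested. Each window is the 150 bases before the RefSeq start on the plus strand of GRCm38.p6: chr5:90891095-90891244 for Cxcl1, chr5:90903749-90903898 for Cxcl2 and chr5:90785951-90786100 for Cxcl3. Capitals mark matches on either strand to the NF-kappa B consensus and to TATAAA:
Cxcl1: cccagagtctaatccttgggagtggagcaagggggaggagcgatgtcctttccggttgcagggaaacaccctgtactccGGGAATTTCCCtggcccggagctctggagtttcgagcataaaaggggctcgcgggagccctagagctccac
Cxcl2: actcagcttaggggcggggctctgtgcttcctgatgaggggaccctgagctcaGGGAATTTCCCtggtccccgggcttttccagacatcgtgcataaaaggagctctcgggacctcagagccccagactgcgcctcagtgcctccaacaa
Cxcl3: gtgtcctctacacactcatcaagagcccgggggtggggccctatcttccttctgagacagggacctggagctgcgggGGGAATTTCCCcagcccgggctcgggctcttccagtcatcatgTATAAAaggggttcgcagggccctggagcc

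The same 11 letters, GGGAATTTCCC, stand in all 3 windows, beginning 71 bases before the start in Cxcl1, 97 in Cxcl2 and 73 in Cxcl3. Each run holds 2 overlapping matches to the consensus, 1 per strand. Over all promoter windows of this length 4.60% held a match (1512 of 32851), and among the windows of members 8 of 36 did (Ccl9, Ccl20, Ccr1, Ccr6, Cxcl1, Cxcl2, Cxcl3 and Cxcl10). TATAAA on either strand stood in 7.57% of all windows and in 8 of the 36 windows of members (22.2%). Matches are letters in a window, not sites shown to be bound in these livers.

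The interferon-induced ligands of Cxcr3, which draw in T and NK cells, did not pass. Cxcl9 read 700, 936, 1013, 393 and 850 in BKS and 2221, 391, 234 and 1858 in db/db. The db/db 1 and 4 arrays lay above all BKS arrays, and db/db 3 below all of them. The db/db 2 array (391) lay only just under BKS 4 (393). Before normalization the order of these arrays was reversed, with 407.8 in db/db 2 and 353.8 in BKS 4. The mean difference was 0.09 (SD 0.53 in BKS and 1.58 in db/db, interval -1.11 to 1.30). On its second probe set db/db 1 and 4 were again above all BKS arrays (332 and 440, against 116 to 268), while db/db 2, at 176, lay within the BKS range and db/db 3, at 106, below it. Cxcl10 read 131, 190, 235, 192 and 299 in BKS and 251, 111, 77.3 and 308 in db/db, so its high arrays in db/db were the same as those of Cxcl9. It stood at -0.29 (interval -1.11 to 0.54). Cxcl11, which the RefSeq table of C57BL/6J lists as a transcribed pseudogene, ranged from 150 to 256 in BKS and from 177 to 250 in db/db (-0.01). Cxcr3 stood at -0.13 (interval -0.81 to 0.55), with 86.0 to 164 in BKS and 67.8 to 133 in db/db. The mean of Cxcl9 in db/db lay between a high and a low pair of arrays.

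Among the other CXC ligands, Cxcl12 differed by probe set. This ligand of Cxcr4 retains blood-forming cells and lymphocytes and is made by stromal and sinusoidal cells. Its brightest probe set read 3903 to 4982 in BKS and 3894 to 4604 in db/db, a difference of -0.05 with an interval of -0.29 to 0.18, the narrowest of all members. A second bright probe set read 3267, 3308, 3465, 2532 and 2910 in BKS and 4470, 5099, 4779 and 4164 in db/db, without overlap. It rose by 0.58 (SE 0.13, limma over all probe sets, adjusted p = 0.0238), with 0.51 on low 18S arrays and 0.71 on high ones. Its call remained in 4 of 9 fits without 1 array. It was lost without BKS 4, BKS 5, db/db 1, db/db 2 or db/db 3 (limma adjusted p from 0.0543 to 0.0871) and with centring on the median (limma adjusted p = 0.0735). The gene is known to give several transcripts that differ at the end, and which of them each probe set reads was not tested.

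Cxcl16, a membrane-bound ligand of Cxcr6 that also takes up oxidised lipoprotein, stood at 0.70 (interval -0.17 to 1.56) on one probe set and at -0.63 on the other. Cxcl13, which guides B cells through Cxcr5, stood at -0.13 (-0.85 to 0.58) and Cxcl17 at 0.70 (-0.39 to 1.79). Of the matching receptors, Cxcr6 stood at -0.09 and Cxcr5 at 0.38, and neither passed. Cxcr4 read 33.5, 42.7, 42.9, 33.6 and 31.5 in BKS and 12.7, 3.37, 2.35 and 51.0 in db/db. All db/db arrays but db/db 4 lay below BKS, and the difference of -0.87 (SE 0.40) did not pass (limma adjusted p = 0.276, unadjusted 0.0475).

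None of the 12 inflammatory CC ligands passed, including those that recruit monocytes through Ccr2. Ccl2, the main monocyte attractant, read 23.3, 12.9, 14.4, 138 and 5.02 in BKS and 106, 68.6, 7.16 and 101 in db/db. At least 1 array in each group departs from the rest, BKS 4 upward and db/db 3 downward. The difference was 0.84 (SE 0.62, interval -0.50 to 2.18, limma adjusted p = 0.550), with 1.64 on low 18S arrays and -0.13 on high ones, and it was 1.32 without BKS 4 and 1.38 without db/db 3, with no call in either. The related Ccl7 stood at -0.78, Ccl12 at 0.33 and Ccl8 at 0.38. The receptor Ccr2 read 38.1 to 124 in BKS and 37.2 to 361 in db/db (0.36, interval -0.78 to 1.51), and its 4 probe sets ran from -0.55 to 0.36. Both intervals reach from below 0 to above 1 on the log2 scale, so neither gene's change is bounded narrowly.

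Ccl9, a ligand of Ccr1 made by myeloid cells, read 8084, 5227, 6615, 7329 and 7538 in BKS and 4896, 5705, 5365 and 5259 in db/db. BKS 2 lay within the db/db range, and the difference of -0.38 (SE 0.13) did not pass (limma adjusted p = 0.123). It passed without BKS 2 (-0.48, limma adjusted p = 0.0245), while the second probe set stood at 0.20. Ccl6, a close relative, stood at -0.89 and -0.69 on its probe sets, and the brighter one at -1.65 on low 18S arrays and 0.12 on high ones. Ccl3 and Ccl4, macrophage products that attract leukocytes, stood at 0.31 and 0.25, and Ccl5, a product of T cells and platelets, at -0.01 (interval -1.16 to 1.14). Ccl3 read 3.90 to 18.8 in BKS and 4.43, 6.66, 124 and 3.51 in db/db, so db/db 3 stood apart. Ccr1, a receptor of several of these ligands, stood at 0.48 (-0.41 to 1.37). The eosinophil ligands Ccl11 and Ccl24 stood at -0.26 and -0.48 and Ccl1, which attracts T cells through Ccr8, at 0.45.

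The other CC ligands, which direct lymphocytes and dendritic cells to skin, gut and other barrier tissues, ran from -0.53 for Ccl20 to 0.39 for Ccl28. Ccl27a (0.06, interval -0.34 to 0.45) and Ccl25 (0.19, -0.38 to 0.76) had the narrowest intervals among them. Ccl27a has near-identical copies, so its reads may be shared. Another 4 probe sets carry a member's symbol together with others and were not used. Ccl22 and Ccl17, ligands of Ccr4, stood at -0.28 and 0.28.

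Ccr4 and Ccr10, receptors of T cells that home to skin and other barriers, had the highest estimates among receptors. Ccr4 read 4.20, 8.26, 14.9, 7.96 and 19.0 in BKS and 49.0, 71.5, 19.4 and 108 in db/db. The groups did not overlap, though db/db 3 lay next to the highest BKS array. The difference was 1.42 (SE 0.39, limma adjusted p = 0.0528), just short of the threshold, with 1.61 on low 18S arrays and 1.19 on high ones. It passed with the 18S block (1.42, limma adjusted p = 0.0491) and without db/db 3 (1.75, limma adjusted p = 0.0222). The signal was dim throughout, and the estimate was 2.33 with 1 and 0.71 with 64 added in place of 16. Ccr10 read 12.7 to 79.9 in BKS and 124, 87.1, 156 and 19.7 in db/db (1.17, SE 0.51, limma adjusted p = 0.242). Ccr3, Ccr6, Ccr7, Ccr8 and Ccr9 stood at -0.85, 0.72, -0.25, -0.08 and 0.08. Ccr7, which brings dendritic cells to lymph nodes, was under 9 on all arrays but BKS 3 (37.6).

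**Figure D3:**
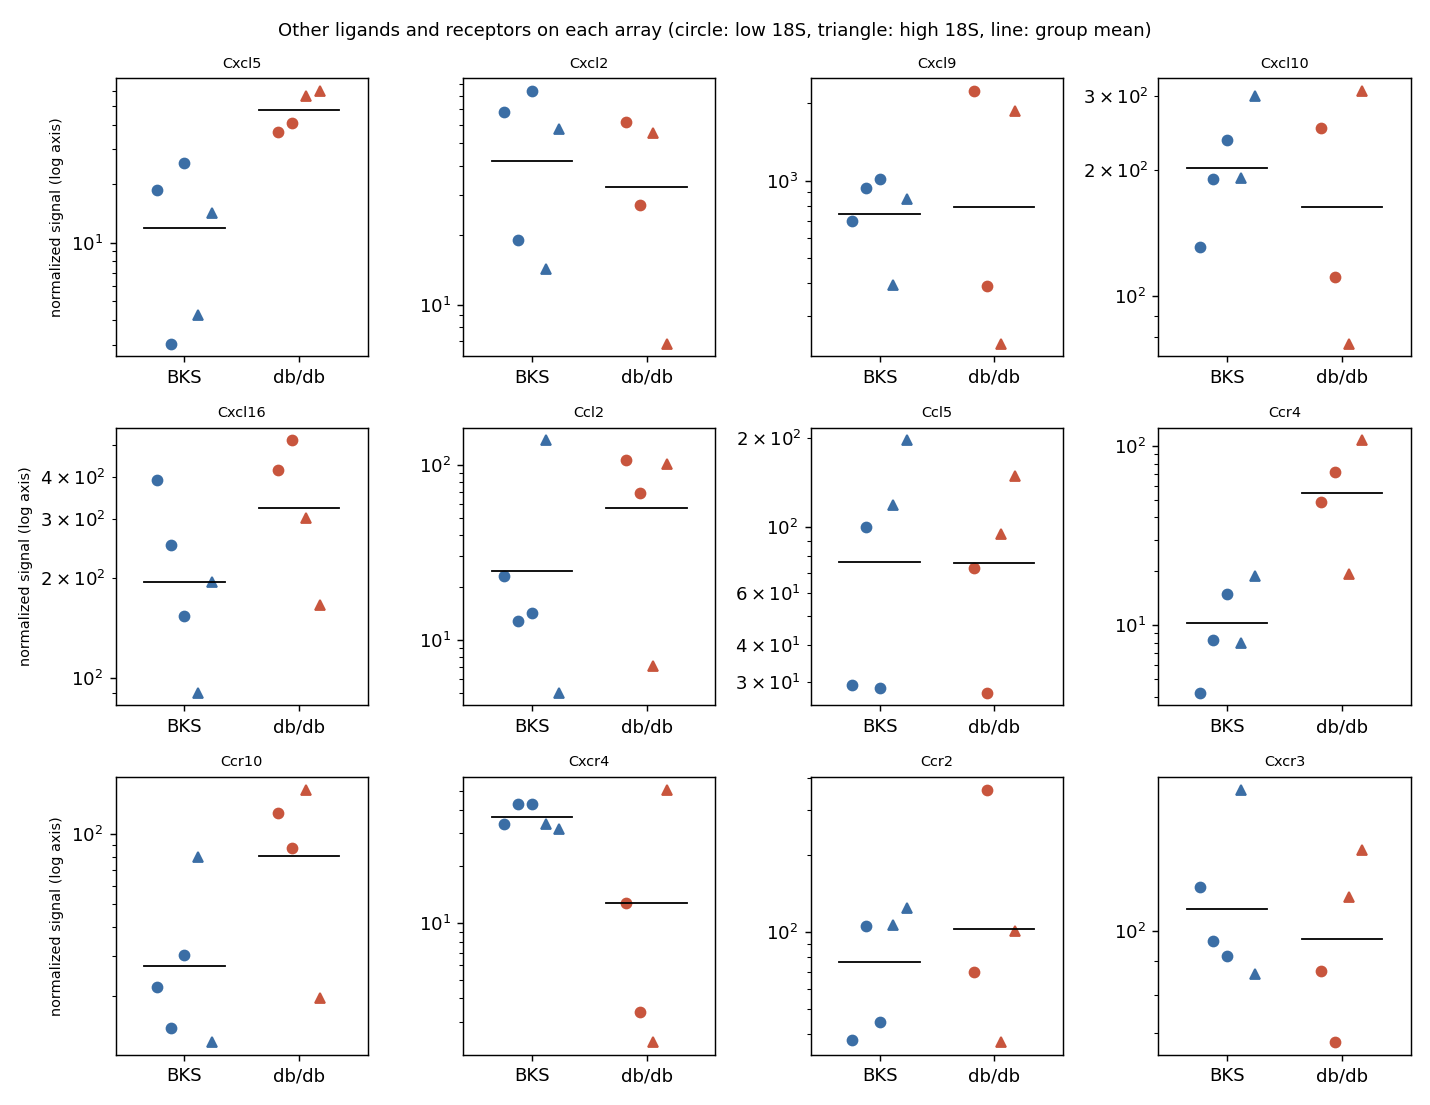
Normalized signal (log axis, a scale of its own per panel) of 12 further ligands and receptors on each array. Points are arrays (5 BKS in blue, 4 db/db in red, circles low and triangles high 18S), and lines are group means taken on the log2 scale. Cxcl5 and Ccr4 show groups without overlap, and Cxcl9 shows db/db arrays on both sides of BKS.

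The 22 members not named by the rule for single genes ran from -0.89 to 0.72, with 12 positive and 10 negative, and the lowest adjusted p among them was 0.340 (limma). Of the 16 members with several probe sets, 7 had probe sets of opposite sign: Ccl9, Ccr2, Ccr9, Cxcl12, Cxcl15, Cxcl16 and Cxcr6. In 25 of 45 members the difference had the same sign in the low and high 18S arrays, and in 20 the opposite sign.

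Genes around the chemokines were taken from lists of textbook knowledge. Over all lists, cell markers included, 148 genes were measured, and 2 rose and 2 fell. Of all genes 5.49% were called in either direction. Of 7 other chemokines and chemokine-like genes 1 fell and 0 rose (median -0.24): Cmtm6, a membrane protein of the chemokine-like factor family, by 1.13 (SE 0.26, limma adjusted p = 0.0226, and 0.0565 to 0.0719 without BKS 1, BKS 4, db/db 1, db/db 2 or db/db 3). Its call remained in 11 of 13 other settings of the processing (highest limma adjusted p = 0.101). Of 9 other and atypical receptors 0 passed (median -0.04). Their estimates were positive in 4 and negative in 5.

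Of 30 genes of receptor signalling 1 rose and 0 fell (median -0.06). Rgs16, which shortens the signal of G protein-coupled receptors, read 36.5, 220, 46.3, 203 and 102 in BKS and 937, 694, 5374 and 4332 in db/db. It rose by 4.12 (SE 0.63, limma adjusted p = 0.00148), and every db/db array lay above every BKS array. Of 27 inducers of chemokines and NF-kappa B genes 0 rose and 1 fell (median -0.14). This was Il1r1, the receptor through which interleukin 1 induces chemokines, with 2302, 1239, 821, 1500 and 1420 in BKS and 305, 262, 314 and 309 in db/db. It fell by 2.16 (SE 0.24, limma adjusted p = 0.000141), without overlap. Of 12 proteases and matrix partners (median -0.29) 1 rose and 0 fell. Sdc1, a heparan sulphate proteoglycan that binds chemokines, rose by 0.41 (SE 0.10, limma adjusted p = 0.0249, and 0.0546 to 0.0739 without BKS 3, BKS 4, db/db 1 or db/db 4). Its call was also lost within either 18S set, after centring on the median, with no normalization and with no trend, and its estimate ran from 0.35 on low 18S arrays alone up to 1.83 when the most variable probe set stood for the gene.

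**Figure D4:**
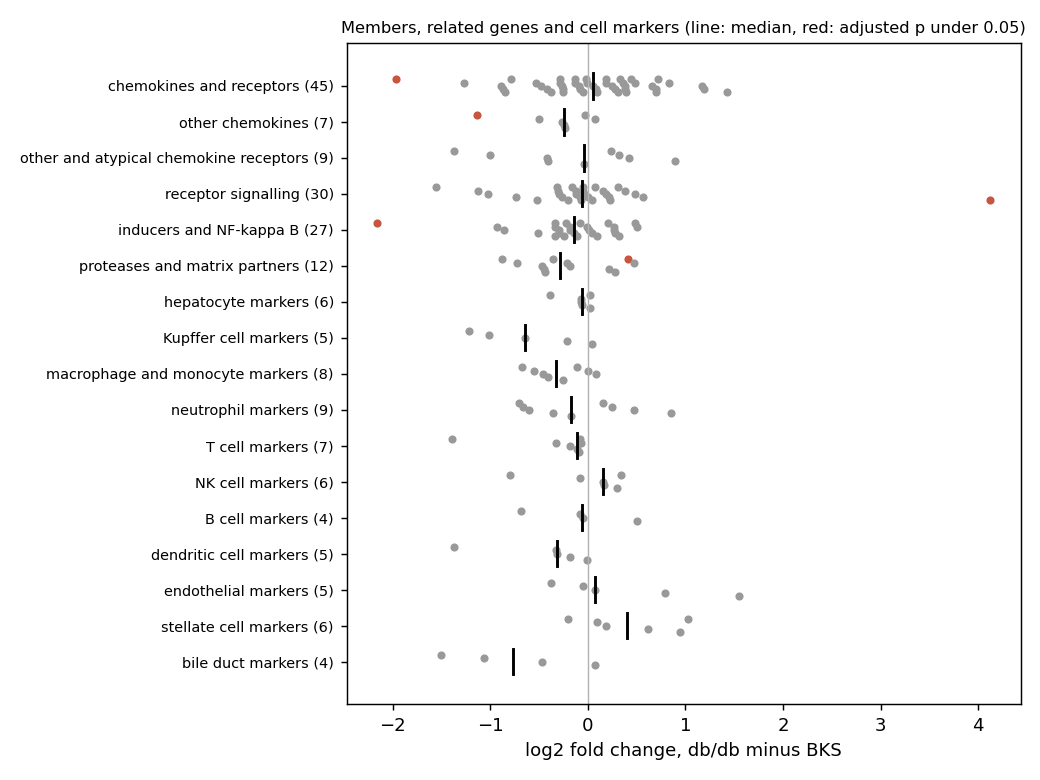
Log2 fold change (db/db minus BKS) of each gene in the 45 members and in each list of related or marker genes. Points are genes, the line is the median of the list, and red marks an adjusted p under 0.05 in limma. The red points are Cxcl14 among the members, and Cmtm6, Rgs16, Il1r1 and Sdc1 among the related genes.

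Markers of leukocytes and other liver cells were measured beside the chemokines, and 0 genes of any marker list passed. With the 18S split as a block, the fit in which Cxcl1 and Ccr4 passed, 5 markers passed too, and 8.23% of all genes did. The Kupffer cell marker Cd5l stood there at -0.87 (limma adjusted p = 0.0249) and the macrophage marker Adgre1 at -0.62 (limma adjusted p = 0.0364). The others were Sox9 of bile ducts at -1.59, Pecam1 of endothelium at 1.64 and Lrat of stellate cells at 0.98 (limma adjusted p = 0.0268, 0.0470 and 0.0398). The rest of these lists did not pass in that fit and differed in sign. Timd4, Clec4f, Vsig4 and Marco of Kupffer cells stood at -1.09, -0.56, -0.10 and 0.22. Csf1r, Ms4a7, Lyz2, Itgam and Trem2 of macrophages and monocytes stood at -0.45, -0.37, -0.36, -0.34 and -0.20, and Gpnmb and Cd68 at 0.10 and 0.08. Krt7, Krt19 and Epcam of bile ducts stood at -1.10, -0.53 and 0.13. Lyve1, Kdr, Stab2 and Cdh5 of endothelium stood at 0.88, 0.17, 0.01 and -0.38. Des, Dcn, Acta2, Pdgfrb and Col1a1 of stellate cells stood at 1.05, 0.80, 0.25, 0.06 and -0.22. Pecam1 read 7.74 to 127 in BKS and 99.9 to 176 in db/db. The summed signal of 5 Kupffer cell markers was 2603 to 7795 in BKS and 1557 to 4134 in db/db (median log2 fold change -0.64), and that of 8 macrophage and monocyte markers was 3882 to 9603 and 2492 to 5439 (median -0.33). Cxcl1 and Cxcl14 also had lower group means in db/db. Cd5l, the brightest Kupffer cell marker, read 4172, 4220, 4027, 1284 and 1293 in BKS 1 to 5. It read 1878, 1810, 554 and 1418 in db/db 1 to 4. On BKS 4 and BKS 5 Cxcl1 read 1459 and 655, against 377 to 1506 in db/db. Cxcl14 read 443 and 282 there, against 67.0 to 152 in db/db. Cd5l, Cxcl1 and Cxcl14 each had their lowest BKS signals on BKS 4 and BKS 5. A link between these markers and either ligand was not tested. For 9 neutrophil markers the sums were 831 to 1258 and 722 to 1053 (median -0.18), for 7 T cell markers 436 to 935 and 263 to 612 (median -0.11), and for 5 dendritic cell markers 352 to 511 and 240 to 439 (median -0.32). For 6 NK cell markers they were 389 to 488 and 367 to 521 (median 0.16), and for 4 B cell markers 290 to 392 and 288 to 422 (median -0.06). The medians were -0.06 over 6 hepatocyte, 0.08 over 5 endothelial, 0.40 over 6 stellate and -0.77 over 4 bile duct markers. The ranges of the summed signals given here overlap between BKS and db/db in each leukocyte list, but a sum follows the brightest genes. Negative estimates were 4 of 5 Kupffer cell, 6 of 8 macrophage, 5 of 9 neutrophil, 7 of 7 T cell, 5 of 5 dendritic cell, 2 of 6 NK cell and 3 of 4 B cell markers. Among these, groups did not overlap for Cd4 (-1.39, limma adjusted p = 0.0539) and Xcr1 (-1.37, limma adjusted p = 0.122), as for 9.15% of all genes.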

How the data were processed

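Liver RNA of 5 BKS and 4 db/db samples was measured on 1-colour Affymetrix arrays. The authors deposited 1 table of linear signal intensity for 45101 probe sets, per the labels' protocols and the values. Each array's trimmed mean was near 500 (2% removed at each end). The software of that scaling is not given in the sources used here, and no detection calls were used. Of the probe sets, 34945 carry 1 symbol, 932 several, 9160 are not listed and 64 are controls. No column was left unmatched.

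Signals were turned to log2 after adding 16 and quantile normalized. The probe set with the highest mean stood for each gene. The groups were compared with limma 3.58.1 in R 4.3.3 (lmFit, eBayes with trend) and Benjamini-Hochberg adjustment over 18193 genes, with no covariate. The script was tested on simulated data. Genes described singly were taken by a rule: members called, at an unadjusted p under 0.05 or without overlap, main ligands and receptors of liver inflammation, members whose probe sets disagree, and up to 3 called genes per direction in each list. The other members are named so that each is accounted for, and some uncalled genes of the lists are given beside the called ones. One gene of the rule is not reported here. The members and lists were chosen with earlier results of these data known. Samples were not paired by their shared replicate numbers. After group means were removed, arrays of the same number correlated at -0.07 to 0.17, which does not settle whether the numbers pair the samples. Promoter sequences come from RefSeq (GRCm38.p6), and all 45 members matched its gene table. Alternatives were other scalings, added amounts, filters, probe set rules and array sets. The fits of single probe sets without 1 array and the fit with Ccr1l1, whose symbol continues after the number, were added after seeing the data.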

Additional observations from a re-analysis of the deposited data

Results flagged for a closer look

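Of 54 groups of arrays tested for 1 array far from the others, 3 stood out, and chance alone gives about 1 in 20. Ccl3 on db/db 3 stood at 7.13 on the log2 scale, with 4.50 for the nearest db/db array. Ccr7 on BKS 3 stood at 5.75, with 4.59 for the nearest BKS array. Il1r1 on db/db 2 stood at 8.12, with 8.33 for the nearest db/db array, a small step in a group of narrow range.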

How the results depend on the processing

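Of 578 fits over 27 single genes, 550 kept their side of the threshold, 11 passed it newly and 17 lost it. The sign turned in 39 fits of 17 genes, 0 of them called on either side of the turn. Examples are Ccl9 at 0.20 with the probe set of largest variance, Cxcl16 at -0.63 with the same rule, Ccl3 at -0.38 without db/db 3, and Ccl5 in 5 of 9 fits without 1 array. The members called (1 as reported) were 2 with the probe set of largest variance (Cxcl1, Cxcl14), 3 with the mean of probe sets (Ccr4, Cxcl14, Cxcl5), 2 with no trend (Cxcl14, Cxcl5), 3 when the 18S split was blocked, 3 on low 18S arrays alone (Ccl6, Cxcl1, Cxcl14), 0 on high ones alone, and 1 to 2 without 1 array. All genes called (999) were 535 after centring on the median, 630 with the probe set of largest variance, 466 with no trend, 436 on low 18S arrays alone, 465 on high ones alone, and 592 (without db/db 3) to 929 without 1 array. Related genes called (4) were 2 after centring, 8 with a filter on dim genes, 12 with the 18S block and 2 to 6 without 1 array. The members' median (0.06) was -0.033 with the filter, -0.042 in the low 18S arrays alone and 0.0053 to 0.11 without 1 array. Fewer arrays enter the 18S sets; the cause of the other shifts was not tested. Dim signals limit most receptors.

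With the replicate number as a block, over numbers 1 to 4, 2 members were called (Cxcl1, Cxcl14) among 597 higher and 544 lower genes. The same 2 were called without BKS 5 and with no block, among 519 higher and 410 lower genes. Whether the numbers pair the samples is not settled by these values or by the correlations of 0.03, 0.17, -0.07 and 0.13.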
